A study of Saccharomyces cerevisiae with 9 samples.

Results

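The genes described here are 10 genes of the cell wall integrity pathway and of wall glucan synthesis in the budding yeast Saccharomyces cerevisiae, taken by name from the 7126 annotated features of the series. Of these, 5 are components of the pathway (WSC1, MID2, BCK1, SLT2 and RLM1) and 5 are genes that the pathway is known to act on (KDX1, FKS1, FKS2, CRH1 and PST1), called output genes below. The rule names the genes and sets no threshold on their values, all 10 were found, and all 10 were well above the filter on low values, with between 257 and 72604 reads in each library.

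The pathway is the signalling route by which yeast responds to stress on its wall. Sensors in the plasma membrane, among them Wsc1 and Mid2, stimulate the small GTPase Rho1, which acts on protein kinase C and is also the regulatory subunit of the enzyme that makes beta-1,3-glucan, the main structural polymer of the wall. Protein kinase C starts a cascade of kinases in which Bck1 is the first and the MAP kinase Slt2 the last, and Slt2 phosphorylates the transcription factor Rlm1, which binds upstream of genes for wall proteins and wall enzymes. Heat is a known activator of this route in growing yeast. Its activity lies in phosphorylation of the proteins, which RNA levels do not measure.

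RNAseq was made from haploid wild-type cells of BY4742, a MATalpha laboratory strain with his3, leu2, lys2 and ura3 alleles, grown for 48 h at 25 °C in YPD to the stationary phase. There were 3 groups of 3 libraries. Heat ramp cells were warmed by 0.5 °C each min until they reached 50 °C, heat shock cells by 50 °C each min, and both stayed for 30 min at 50 °C and were then cooled quickly to 25 °C. Control cells were not heated. Each of 3 independent cultures gave a sample to every group. The ramp also kept cells above 25 °C for longer, so that the rate of heating and the time under heat cannot be told apart, and all groups were stationary-phase cells. In these bulk samples a loss of RNA from part of the cells and less RNA in every cell cannot be told apart either.

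Libraries held between 22579312 and 27233289 counted reads. The reads of LEU2, LYS2 and URA3 were 0 in all 9 libraries, where a count of 0 allows up to 3 reads each, and the alpha-factor gene MF(ALPHA)1 had between 3057 and 22755 normalized counts. MF(ALPHA)2 had between 234 and 1384 normalized counts, and the a-factor genes MFA1 and MFA2 had between 29.4 and 408 and between 72.9 and 2072. MFA2 exceeded MF(ALPHA)2 in every control and heat shock library and was below it in every heat ramp library. The labelled strain lacks the first 3 genes and is of the alpha mating type. HIS3, which is only partly deleted in that strain, had between 231 and 681 normalized counts. The source of the a-factor counts was not tested. A normalized count is a gene's reads over the size factor of the library they came from. Size factors lay between 0.610 and 0.714 in heat ramp cells, between 1.11 and 1.13 in heat shock cells and between 1.40 and 1.46 in control cells, a far wider range than that of the depths. When libraries were scaled to their total reads instead, the log2 fold change of every gene fell by about 0.92 in heat ramp against control, by 0.17 in heat shock against control and by 0.74 in heat ramp against heat shock (median shifts of −0.92, −0.17 and −0.74 over all tested features). Size factors computed from protein-coding genes only moved them by 0.18, 0.11 and 0.07 in the other direction. Directions are given below for the deposited size factors, and where total count scaling turned one round its value stands beside it.

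As a pattern for Rlm1, CTA and TAG with any 4 bases between them was searched for on both strands in the R64 reference genome. The search covered the 500 bases before each start codon. Any 4 bases were allowed in the middle, so a match need not be a site that Rlm1 binds. The pattern was found once each before 4 of the 10 genes (BCK1, RLM1, FKS2 and PST1), against 556 of 6000 protein-coding genes (9.27%). The stretches that hold it are printed to show the letters that were matched. They are 30 bases each, read 5′ to 3′ on the coding strand, with the match in capitals.
PST1, chrIV:563212-563241, plus strand: ttacgagtctCTAAAAATAGcgtaggcaca
FKS2, chrVII:547918-547947, plus strand: aactggtgtgCTAAGAATAGagtttcataa
RLM1, chrXVI:381439-381468, minus strand: gagatgaaagCTAATAATAGaaacagctcg
BCK1, chrX:247207-247236, plus strand: gtacgaaacaCTAAATATAGtattaaaata
A match is a description of the sequence, and none in this window says nothing about the factor. The element of the heat shock factor, searched as GAA, TTC and GAA with any 2 bases between neighbours, or as TTC, GAA and TTC likewise, was in none of the 10 windows and in 1.48% of all genes. The stress response element AGGGG, on either strand, was before WSC1 and BCK1, so 2 of 10, against 34.1% of all genes. The 4 genes with the Rlm1 match did not move together, as the values below show: in heat ramp cells PST1 was higher, BCK1 and FKS2 were lower and RLM1 did not pass the test.

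Heat ramp against control asks what slow heating did to the pathway and to the genes below it. MID2, one of the sensors, and PST1, a wall and membrane glycoprotein, stood well apart from the other genes, at 2.90-fold and 4.97-fold the control mean. Among components 2 rose (WSC1 and MID2) and 1 fell (BCK1), and among output genes 2 rose (CRH1 and PST1) and 1 fell (FKS2), so that 6 of 10 genes passed limma's test (p-value under 0.05 after Benjamini-Hochberg adjustment) while 78.5% of all 6847 tested features passed it (39.0% higher and 39.5% lower). The same 4 higher and 2 lower genes were those whose libraries did not overlap between the groups, against 80.8% of all features. The median log2 fold change was 0.43 over the 5 components, −0.0030 over the 5 output genes and −0.0071 over all tested features. These medians were −0.49, −0.92 and −0.92 with total count scaling. With total count scaling 2 genes rose and 6 fell, against 1325 and 4385 of all features. Without the heat ramp library of culture 1 or 3 or any of the control libraries 1 gene fell, since FKS2 lost its call.

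Heat shock against control asks the same of sudden heating, with the same control libraries. MID2 alone rose, and BCK1, RLM1, FKS2 and PST1 fell, which makes 5 of 10 genes past the test against 57.6% of all features (29.9% higher and 27.7% lower). Without control replicate 1 or 3 the number of lower genes was 2, and without the heat ramp library of culture 2, which shares the fit, that of higher genes was 2. Groups did not overlap for 4 of the 10 genes, MID2, BCK1, RLM1 and FKS2, against 68.1% of features. The median log2 fold change was −0.11 over the components, 0.16 over the output genes and 0.04 over all tested features, or −0.28, −0.011 and −0.13 with total count scaling.

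The direct comparison of heat ramp with heat shock asks where the treatments themselves differed. MID2, SLT2, RLM1 and PST1 were higher after the ramp and 0 were lower (also 0 at an unadjusted p under 0.05, with edgeR and with DESeq2), so 4 of 10 passed against 72.0% of all features (35.9% higher and 36.1% lower). Groups did not overlap for MID2, RLM1 and PST1, all higher after the ramp, and for FKS1, lower after the ramp, against 72.1% of features. With total count scaling 1 gene (PST1) was higher after the ramp and 6 were lower, against 1184 and 4096 of all features. Without the heat ramp library of culture 2, KDX1 was lower with the deposited size factors. Components had a median of 0.71 and output genes of 0.06, beside 0.04 over all tested features, and with total count scaling −0.031, −0.68 and −0.70. In none of the comparisons did the share of these genes past the test exceed the share of all features.

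**Figure D1:**
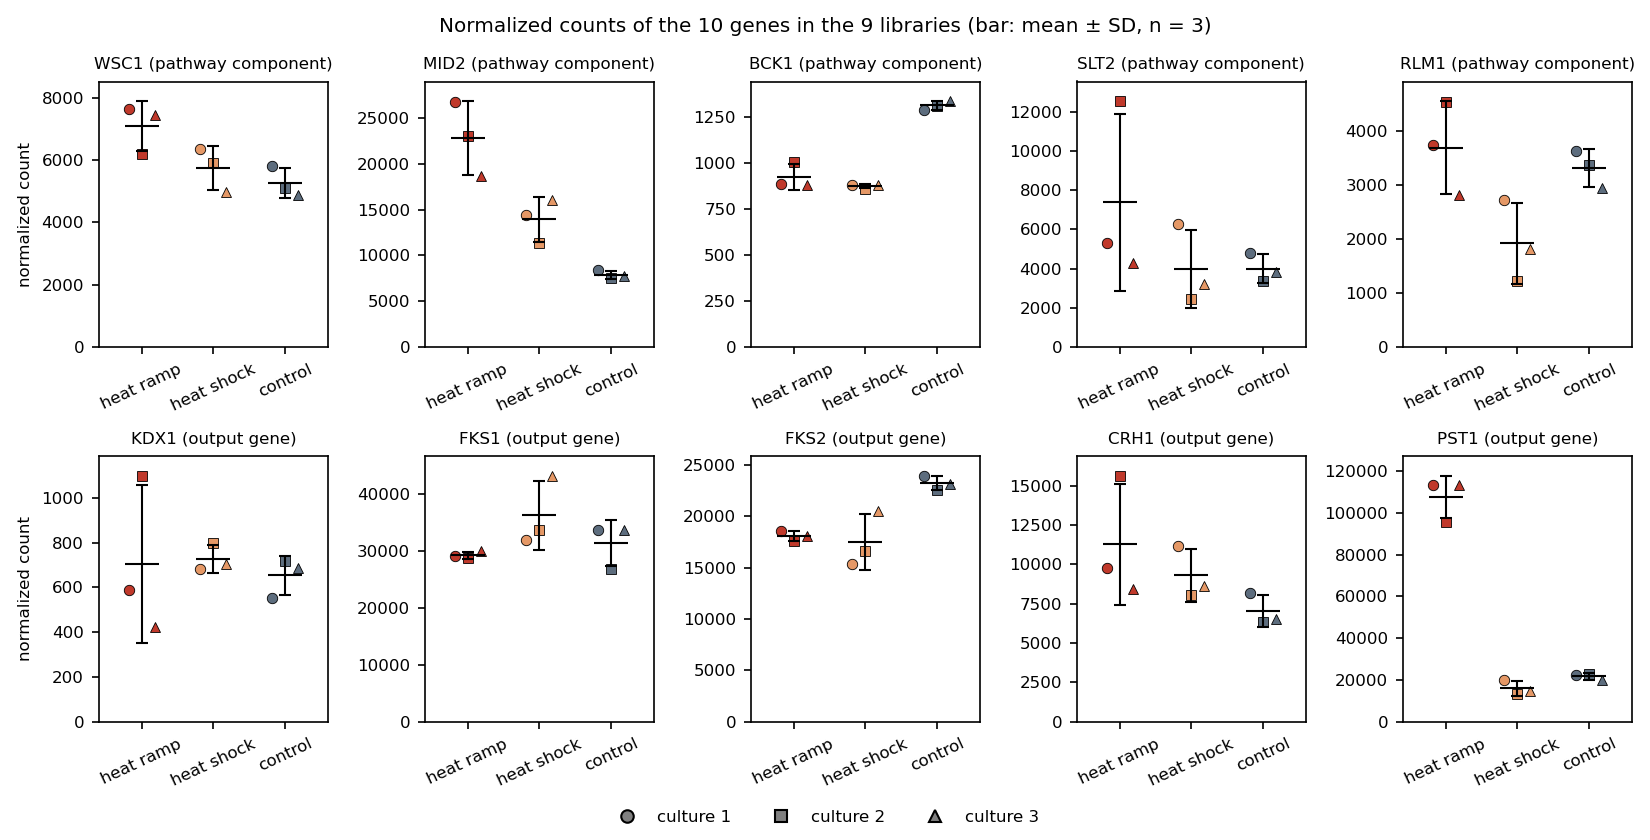
Normalized counts (y axis of each panel, from 0, with its own scale) of the 10 genes in the heat ramp, heat shock and control libraries. Each point is a library with a marker for its culture, and bars are the mean ± SD of 3. PST1 lay between 95765 and 113535 in heat ramp cells, against 13211 to 22850 in the other libraries, and the heat ramp library of culture 2 is the highest of all for SLT2, KDX1 and CRH1.

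WSC1 (YOR008C, SLG1 in the reference annotation) encodes a mannosylated sensor that spans the plasma membrane and lies on chromosome XV, 341278 to 342414. It had 7651, 6183 and 7460 normalized counts in heat ramp cells, 6367, 5918 and 4976 in heat shock cells, and 5823, 5108 and 4896 in control cells. All heat ramp libraries were above all control libraries, while those of the heat shock overlapped both. Heat ramp against control had a log2 fold change of 0.43 (limma SE 0.137, adjusted p = 0.0109), and it was −0.49 (adjusted p = 0.00413) with total count scaling, so that its direction rests on the scaling. Without control replicate 3 the call was lost (0.37, adjusted p = 0.0525). Heat shock against control gave 0.12 (adjusted p = 0.464), turning to −0.05 with total count scaling, and heat ramp against heat shock 0.30 (adjusted p = 0.0590), turning to −0.44. With the culture as a block this comparison of the treatments had an adjusted p of 0.0485.

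MID2 (YLR332W, chromosome XII, 790676 to 791806) encodes a second type of sensor. It had 26717, 23030 and 18708 normalized counts in heat ramp cells, 14384, 11299 and 16065 in heat shock cells, and 8348, 7565 and 7724 in control cells. The groups formed 3 separate levels with no overlap. Its log2 fold change was 1.52 (SE 0.165, adjusted p = 1.2e-06) for heat ramp against control and 0.81 (adjusted p = 0.00101) for heat shock against control, and both passed the test under all 19 alternatives, total count scaling included (0.60 and 0.63). The difference of 0.71 between heat ramp and heat shock (adjusted p = 0.00139) became −0.03 with total count scaling. On the other strand, the questionable reading frame JIP3 (YLR331C, 790669 to 791046) overlaps the start of MID2, and the sources used here do not say whether counting used the strand. JIP3 averaged 660.0 ± 274 normalized counts in heat ramp cells, 426 ± 90.6 in heat shock cells and 160.4 ± 29.2 in control cells (SD, n = 3 each), and its part in the MID2 values was not tested.

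BCK1 (YJL095W, chromosome X, 247255 to 251691) encodes the first kinase of the MAP kinase cascade. It had 883, 1003 and 879.8 normalized counts in heat ramp cells, 876, 859 and 880.3 in heat shock cells, and 1286, 1309.8 and 1333 in control cells. Every heated library was below every control library, and the groups were tight. The log2 fold change was −0.51 (SE 0.112, adjusted p = 0.000813) in heat ramp cells and −0.59 (adjusted p = 0.000600) in heat shock cells, and both held under all 19 alternatives. Between heat ramp and heat shock the difference was 0.08 (adjusted p = 0.543), or −0.67 with total count scaling.

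SLT2 (YHR030C, chromosome VIII, 168890 to 170344) encodes the MAP kinase of the pathway. It had 5309, 12543 and 4276 normalized counts in heat ramp cells, 6259, 2455 and 3213 in heat shock cells, and 4787, 3368 and 3826 in control cells. Each heated group held 1 library far above its other libraries, from culture 2 in the heat ramp and from culture 1 in the heat shock, and all groups overlapped. Within cultures the heat ramp sample was 1.11, 3.72 and 1.12 times its control in cultures 1 to 3. Its log2 fold change was 0.74 (SE 0.359, adjusted p = 0.0745) for heat ramp against control, −0.18 with total count scaling, and −0.11 (adjusted p = 0.810) for heat shock against control. For heat ramp against heat shock it was 0.84 (adjusted p = 0.0481), which held in 5 of 19 alternatives. The same difference had an adjusted p of 0.0527 with the culture as a block, and without the heat ramp library of culture 2 it was 0.38 (adjusted p = 0.267).

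RLM1 (YPL089C, chromosome XVI, 379120 to 381150) encodes the MADS-box transcription factor below Slt2. It had 3737, 4532 and 2815 normalized counts in heat ramp cells, 2717, 1213 and 1824 in heat shock cells, and 3636, 3377 and 2939 in control cells. The heat shock libraries lay below all others, and those of the heat ramp lay around the control. The log2 fold change was 0.13 (adjusted p = 0.614) for heat ramp against control, or −0.78 with total count scaling. It was −0.86 (SE 0.238, adjusted p = 0.00720) for heat shock against control, which held under all 19 alternatives. Heat ramp against heat shock gave 1.00 (adjusted p = 0.00182), and 0.25 (adjusted p = 0.349) with total count scaling.

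Of the output genes, KDX1 (YKL161C, chromosome XI, 149386 to 150687) encodes a relative of Slt2 and is a classical target of Rlm1. It had 588, 1099 and 421 normalized counts in heat ramp cells, 681, 800.1 and 703 in heat shock cells, and 554, 718 and 688 in control cells. The heat ramp group held both the highest and the lowest library of the 9, so it spanned the others. Its log2 fold change was −0.0030 (SE 0.256, adjusted p = 0.992) for heat ramp against control, 0.16 (adjusted p = 0.607) for heat shock against control and −0.16 (adjusted p = 0.575) for heat ramp against heat shock. With total count scaling they were −0.92 (adjusted p = 0.00504), −0.011 (adjusted p = 0.975) and −0.91 (adjusted p = 0.00616), in the same order. Without the heat ramp library of culture 2, heat ramp against control was −0.38 (adjusted p = 0.0458) and heat ramp against heat shock −0.54 (adjusted p = 0.00915), both past the test.

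CRH1 (YGR189C, chromosome VII, 876669 to 878192) encodes a transglycosylase that links chitin to glucan in the wall. It had 9749.9, 15613 and 8399 normalized counts in heat ramp cells, 11187, 8039 and 8625 in heat shock cells, and 8183, 6350.2 and 6519 in control cells. Heat ramp libraries were above the control libraries, the lowest of them by little, and the heat shock libraries overlapped both. The log2 fold change was 0.64 (SE 0.208, adjusted p = 0.0118) for heat ramp against control, −0.28 with total count scaling, and 0.38 (adjusted p = 0.0513) without the heat ramp library of culture 2. It was 0.40 (adjusted p = 0.115) for heat shock against control and 0.24 (adjusted p = 0.312) for heat ramp against heat shock, where total count scaling gave −0.50. Taken by culture, the heat shock sample of CRH1 was 1.37, 1.27 and 1.32 times its control.

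PST1 (YDR055W, chromosome IV, 563527 to 564861) encodes a glycoprotein anchored to the membrane and wall that is known to be induced by wall damage. It had 113279, 95765 and 113535 normalized counts in heat ramp cells, 20164, 13211 and 14574 in heat shock cells, and 22122, 22850 and 19919.8 in control cells. Every heat ramp library was more than 4 times any other library, whereas heat shock and control overlapped. Its log2 fold change was 2.31 (SE 0.180, adjusted p = 4.1e-08) for heat ramp against control, and 1.39 with total count scaling. Heat ramp against heat shock gave 2.77 (adjusted p = 7.5e-09), 6.73-fold by the means, and 2.03 with total count scaling. Both held under all 19 alternatives. For heat shock against control the value was −0.46 (adjusted p = 0.0417), and this call held in 13 of 19 alternatives, with adjusted p-values between 0.0627 and 0.134 when heat shock replicate 2 or 3 or any of the control replicates was left out.

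FKS1 (YLR342W, chromosome XII, 809997 to 815627) and FKS2 (YGR032W, GSC2 in the reference annotation, chromosome VII, 548264 to 553951) encode alternative catalytic subunits of beta-1,3-glucan synthase, of which FKS1 is known as the form of growing cells and FKS2 as the form used under stress and when glucose runs out. FKS1 had 29128, 28827 and 29967 normalized counts in heat ramp cells, 31937, 33673 and 43273 in heat shock cells, and 33655, 26787 and 33797 in control cells. The library of culture 3 was the highest in heat shock cells, all heat shock libraries were above all heat ramp libraries, and the control overlapped both. It passed the test in no comparison with the deposited size factors, at −0.09 (adjusted p = 0.623) for heat ramp against control, 0.20 (adjusted p = 0.314) for heat shock against control and −0.30 (adjusted p = 0.128) for heat ramp against heat shock. With total count scaling the first and the last were −1.01 and −1.04, both past the test, as the whole distribution moved down.

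FKS2 had 18573, 17633 and 18113 normalized counts in heat ramp cells, 15321, 16605 and 20581 in heat shock cells, and 23961, 22604 and 23182 in control cells. Every heated library was below every control library. The log2 fold change was −0.36 (SE 0.143, adjusted p = 0.0328) for heat ramp against control and −0.42 (adjusted p = 0.0220) for heat shock against control. The heat ramp call was lost when any single heat ramp or control library was left out, with values of −0.34 to −0.38 and adjusted p-values of 0.0519 to 0.0863, and it was lost when only protein-coding genes were used (−0.18, adjusted p = 0.269). The heat shock call was lost without heat shock replicate 1, control replicate 1 or control replicate 3 (adjusted p of 0.0613 to 0.0843). Heat ramp against heat shock gave 0.06 (adjusted p = 0.719), or −0.68 with total count scaling.

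**Figure D2:**
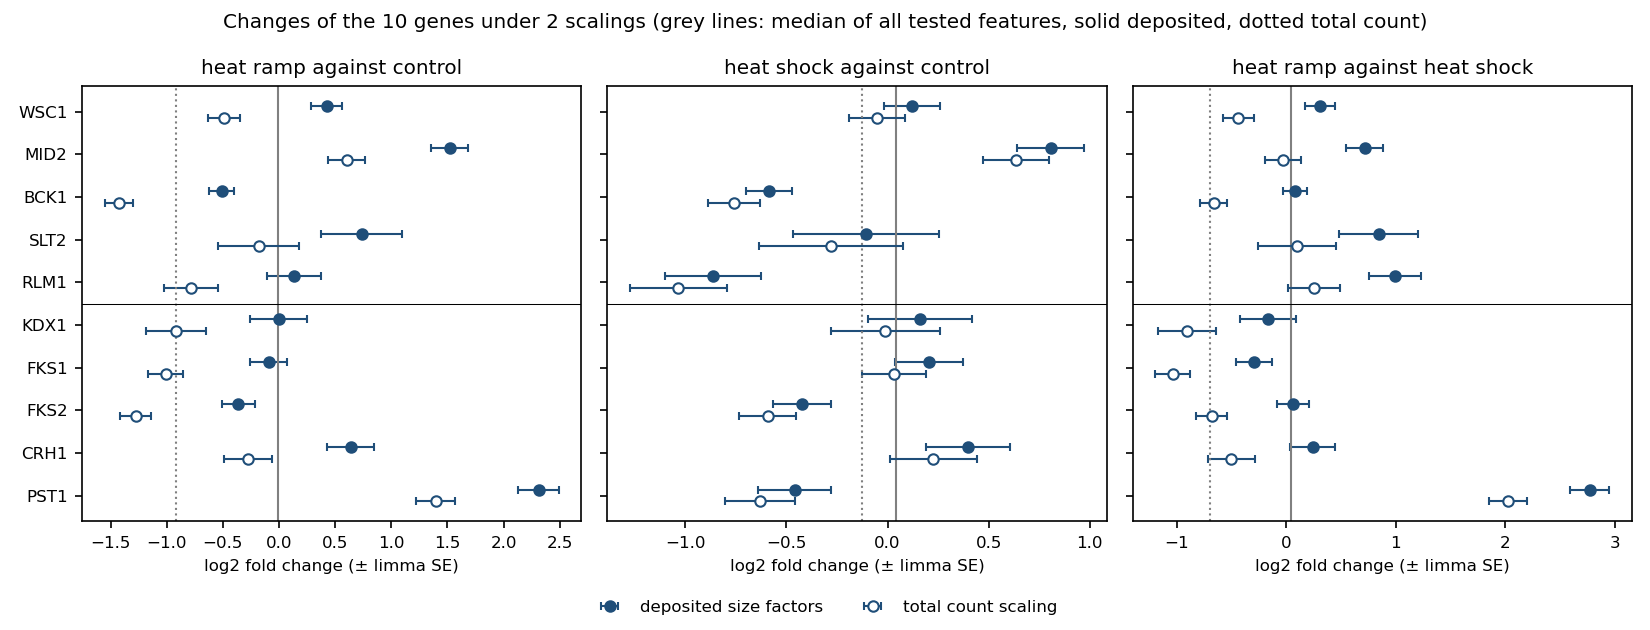
Log2 fold changes (x axis, with limma standard errors) of the 10 genes in the 3 comparisons, components above the horizontal line and output genes under it. Filled points use the deposited size factors and open points total count scaling, and the grey lines are the medians of all tested features under each scaling (−0.0071 and −0.92 in heat ramp against control). MID2 and PST1 stay above 0 under both scalings in heat ramp against control, and WSC1, SLT2, RLM1 and CRH1 change sign.

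A scaling by library moves all genes of that library alike, so by construction total count scaling leaves the distance of a gene from the median of all tested features nearly as it was. In heat ramp against control that distance was 0.43 for WSC1, 1.53 for MID2, 0.65 for CRH1 and 2.32 for PST1 with the deposited size factors, and −0.50 for BCK1, −0.35 for FKS2 and 0.0040 for KDX1. With protein-coding genes only, the median was taken over those genes alone, so the distances are from a different reference set. They were 0.62 for WSC1, 1.71 for MID2, 0.83 for CRH1 and 2.51 for PST1, and −0.31 for BCK1, −0.17 for FKS2 and 0.19 for KDX1.

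The ratio of FKS2 to FKS1 within a library does not depend on any size factor. Per coding length, FKS2 was at 0.598 to 0.631 of FKS1 in heat ramp cells, 0.471 to 0.488 in heat shock cells and 0.679 to 0.835 in control cells. The 3 groups did not overlap, and the spread within each heated group was small. The log2 ratio of the counts averaged −0.69 ± 0.04 in heat ramp cells, −1.05 ± 0.03 in heat shock cells and −0.43 ± 0.16 in control cells (SD, n = 3 each), and is given as a description with no test. So FKS1 exceeded FKS2 in all 9 libraries, and the excess was greatest in heat shock cells. Both genes are long and alike, but the longest stretch of identical bases in their coding sequences is 38, shorter than a 50-base read, and it is printed because it bounds how far reads of the paralogs could be confused. It lies at chrXII:812391-812428 in FKS1 and chrVII:550715-550752 in FKS2, both on the plus strand.
FKS1 and FKS2: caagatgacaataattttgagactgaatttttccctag
Read on the coding strand, none of the 10 genes shares a run of 50 bases with another coding sequence of the genome. Opposite strands were not compared, and MID2 overlaps JIP3 on the other strand. Reads were trimmed, however, and shorter ones could match in both.

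The corresponding ratio of KDX1 to SLT2, which share at most 11 bases in a row, was less steady. KDX1 was at 0.0980 to 0.124 of SLT2 per coding length in heat ramp cells, 0.122 to 0.364 in heat shock cells and 0.130 to 0.238 in control cells. The log2 ratio of the counts averaged −3.34 ± 0.17 in heat ramp cells, −2.33 ± 0.80 in heat shock cells and −2.60 ± 0.45 in control cells (SD, n = 3 each). The heat ramp libraries were close to each other in this ratio although both genes varied more than in control cells, and they overlapped with the heat shock libraries and lay below those of the control.

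**Figure D3:**
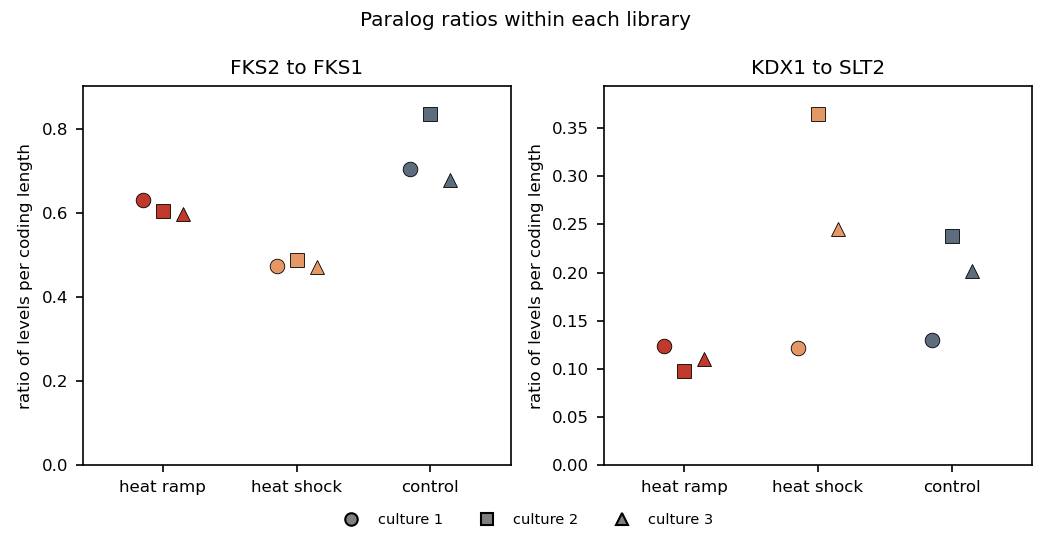
Ratio of levels per coding length (y axis, from 0) of FKS2 to FKS1 and of KDX1 to SLT2 in each heat ramp, heat shock and control library, with a marker for each culture. FKS2 to FKS1 forms separate groups at 0.598 to 0.631, 0.471 to 0.488 and 0.679 to 0.835, while KDX1 to SLT2 overlaps between heat ramp and heat shock.

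Levels can be ranked between genes only per length. In heat ramp cells PST1 was by far the most abundant, with 80544 ± 7630 normalized counts per kilobase of coding sequence, followed by MID2 with 20175 ± 3545, and BCK1 was lowest with 208 ± 15.9 (SD, n = 3). In between came CRH1, WSC1, FKS1, SLT2, FKS2, RLM1 and KDX1, where CRH1 and WSC1, FKS1 and SLT2, and SLT2 and FKS2 overlapped as neighbours. In heat shock cells MID2 (12304 ± 2137) and PST1 (11972 ± 2760) shared the top and overlapped, and FKS1, CRH1 and WSC1 followed, overlapping as neighbours. In control cells PST1 had 16203 ± 1143 and MID2 6966 ± 366 per kilobase, then came FKS1, WSC1, CRH1 and FKS2, each overlapping with the next, and SLT2, RLM1, KDX1 and BCK1 (295 ± 5.28) stood apart from each other. BCK1 was last in every group, and the kinases and the factor RLM1 ranked by their means under both sensors in every group.

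**Figure D4:**
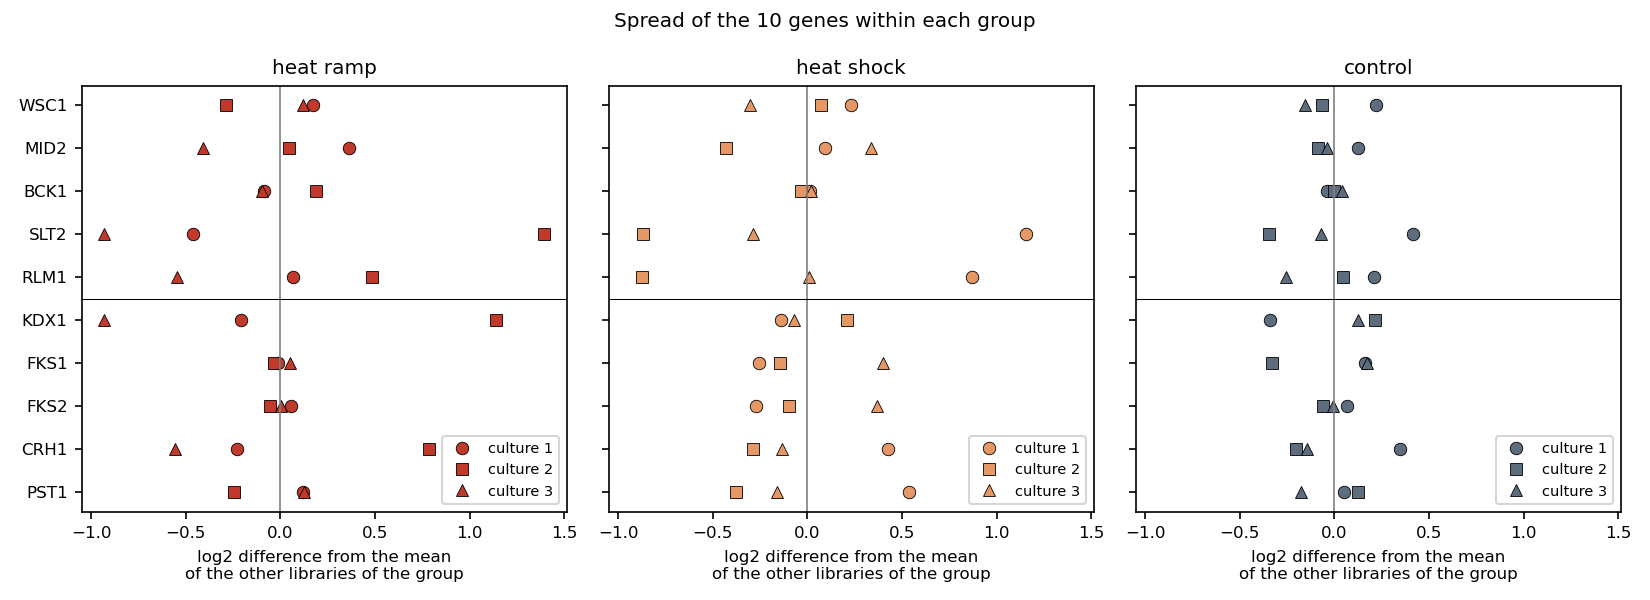
Log2 difference (x axis) of each library from the mean of the other libraries of its group, for the 10 genes, components above the horizontal line. In the heat ramp the library of culture 2 lies at 1.40 for SLT2 and 1.14 for KDX1, and in the heat shock that of culture 1 lies at 1.16 for SLT2 and 0.87 for RLM1, while FKS1 and FKS2 are tight in the heat ramp.

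Libraries of a group differed for a subset of these genes more than for most features. The heat ramp library of culture 2 stood 1.40 (log2) above the mean of the other heat ramp libraries for SLT2, the fifth highest of 6847 tested features, where rank 5 is counted from the most positive difference, and 1.14 above for KDX1, rank 13. CRH1 stood 0.79 and RLM1 0.48 above in that library, whereas MID2, WSC1, FKS1, FKS2 and PST1 did not, PST1 being at −0.24. In the heat shock group the library of culture 1 was high for SLT2 (1.16, rank 60) and RLM1 (0.87, rank 144), with PST1 at 0.54 and CRH1 at 0.43, but KDX1 at −0.14. In that group culture 2 was low for SLT2 and RLM1, both at −0.87. Over all features, between 28 and 234 of 6847 in a heated library differed by more than 1 from the other libraries of the group, and 234 was the number in the heat ramp library of culture 2, of which 36 were higher and 198 lower. What set these libraries apart was not tested.

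The rest of the pathway was described from lists of textbook genes, with counts beside those of all features given above for the deposited size factors. With total count scaling, 1325 of all 6847 tested features were higher and 4385 lower in heat ramp against control. In heat shock against control these counts were 1525 and 2402, and in heat ramp against heat shock 1184 and 4096. All sensors moved one way in heat ramp cells, where 6 of 6 rose, with a median log2 fold change of 1.26 and a range of 0.43 to 3.10, but with total count scaling 3 rose and 1 fell. MTL1, the paralog of MID2, had 25025, 16048 and 22080 normalized counts in heat ramp cells, 4027, 2838 and 3683 in heat shock cells, and 2919, 2374 and 2019.6 in control cells. That is a log2 fold change of 3.10 (SE 0.187, adjusted p = 3.7e-09) for heat ramp and 0.53 (adjusted p = 0.0263) for heat shock. WSC2, a relative of WSC1, had 9051, 6767 and 7874 in heat ramp cells, 2154, 1684 and 2330.1 in heat shock cells, and 1248, 1151 and 1195 in control cells, with log2 fold changes of 2.71 (adjusted p = 1.1e-09) and 0.77 (adjusted p = 0.000535). Both exceeded MID2 in fold change in heat ramp cells and kept their direction with total count scaling (2.19 and 1.79). In heat shock cells 3 of 6 sensors rose and 1 fell (0 without heat shock replicate 1 or control replicate 2). With total count scaling 2 rose and 1 fell in heat shock cells, and MTL1 lost its call (0.36, limma adjusted p = 0.0979). The number that rose ranged from 2 to 3 when single libraries were left out. Between the treatments 5 of 6 sensors were higher in heat ramp cells than in heat shock cells, against 3 higher and 1 lower with total count scaling.

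In the Rho1 module, which holds the GTPase with its exchange factors and GTPase-activating proteins, 3 of 8 genes rose and 2 fell in heat ramp cells, against 2 and 5 with total count scaling. ROM1, an exchange factor that turns Rho1 on, had a log2 fold change of 2.40 (adjusted p = 2.4e-09), and BAG7, which turns it off, of 1.66 (adjusted p = 0.000197), while LRG1, which also turns it off, was at −1.18 (adjusted p = 2.5e-06). In heat shock cells 1 of 8 rose (RHO1, 0.55, adjusted p = 0.0017) and 4 fell, led by the exchange factors TUS1 (−1.08) and ROM2 (−0.68). The number that fell was 5 with total count scaling and 3 with the culture as a block. It ranged from 3 to 4 when single libraries were left out.

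Of the 5 kinases of the cascade 0 rose and 2 fell in heat ramp cells by limma. The number that rose was also 0 at an unadjusted p under 0.05, with edgeR and with DESeq2, and it was 1, namely SLT2, with protein-coding genes only, and likewise without either heat shock replicate 1 or heat ramp replicate 3. PKC1, protein kinase C, had 1488, 1530.4 and 1294 normalized counts in heat ramp cells, 1189, 1117 and 1196.5 in heat shock cells, and 3166, 2772 and 3058 in control cells, so that every heated library was below every control library. Its log2 fold change was −1.06 (adjusted p = 1.2e-06) in heat ramp cells and −1.36 (adjusted p = 9.8e-07) in heat shock cells. In each heated group 4 of 5 fell with total count scaling, against 4385 of all 6847 features in heat ramp cells and 2402 in heat shock cells. In heat shock cells 3 of 5 fell with the deposited size factors (PKC1, MKK1 at −0.79 and BCK1) and 0 rose by limma, at an unadjusted p under 0.05, with edgeR or with DESeq2. The median over the kinases was −0.10 for heat ramp and −0.59 for heat shock, beside 1.26 and 0.33 for the sensors. Of the transcription factors, 1 of 3 was lower in heat ramp cells (SWI4, −0.98, adjusted p = 4.9e-05), or 3 of 3 with total count scaling, and 3 of 3 were lower in heat shock cells (SWI4 −0.94, RLM1 −0.86 and SWI6 −0.59). Swi4 and Swi6 together form the factor SBF, the other known nuclear target of Slt2.

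Phosphatases that act on Slt2 were divided. PTP3, a tyrosine phosphatase, was at −1.95 (adjusted p = 1.7e-09) in heat ramp cells and −0.44 (adjusted p = 0.00334) in heat shock cells. SDP1, a stress-inducible phosphatase, was at 1.64 (adjusted p = 1.2e-06) and 0.51 (adjusted p = 0.0243). In all, 1 of 4 rose and 2 fell in heat ramp cells (1 and 3 with total count scaling), and 1 rose and 1 fell in heat shock cells, where SDP1 lost its call with total count scaling and without heat shock replicate 1 or 2 or control replicate 2 or 3.

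Among subunits of glucan synthase, 2 of 5 rose and 2 fell in heat ramp cells (1 and 3 with total count scaling), or 1 fell when any of the heat ramp or control libraries was left out. FKS3, a relative of FKS1 known from spore wall formation, had 1557, 1222 and 1559.8 normalized counts in heat ramp cells, 573, 649 and 754 in heat shock cells, and 465, 448 and 457 in control cells. Its log2 fold change was 1.65 (adjusted p = 1.05e-07) for heat ramp and 0.52 (adjusted p = 0.00655) for heat shock, so it moved upward where FKS2 moved downward. RHO1, the regulatory subunit, was at 0.71 in heat ramp cells, or −0.20 with total count scaling, and SMI1, a regulator of glucan synthesis, was at −0.88 (adjusted p = 6.3e-05).

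Textbook genes below Rlm1 and Slt2, a list of 19 that includes SLT2, KDX1, PST1, CRH1, FKS1 and FKS2, had 12 higher and 1 lower in heat ramp cells and a median of 0.73. With total count scaling 5 were higher and 8 lower, with a median of −0.18. The gene lower with the deposited size factors was FKS2, and the number of lower genes was 0 without heat ramp replicate 1 or 3 or any of the control replicates and 2 without heat ramp replicate 2. SED1 (2.15, adjusted p = 2.1e-05) and HSP150 (2.13, adjusted p = 3.0e-06), both abundant wall glycoproteins, came next to PST1 in fold change. HSP150 had 315301, 181022 and 290768 normalized counts in heat ramp cells, 45368, 30278 and 49469 in heat shock cells, and 63036, 53687 and 57928 in control cells, the same order of groups as PST1. In heat shock cells 5 of 19 rose and 4 fell (2 without control replicate 1 or 3), with YPS3, a wall protease, at −1.25 (adjusted p = 0.000477) and BGL2, a glucan-modifying enzyme, at 1.07 (adjusted p = 0.000513). Between the treatments 11 of 19 were higher in heat ramp cells and 0 were lower, against 5 higher and 8 lower with total count scaling. The 0 is from limma, and it was also 0 at an unadjusted p under 0.05, with edgeR and with DESeq2, but 2 without heat ramp replicate 2.

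Other enzymes of the wall moved in both directions. Of 14 glucan remodelling enzymes, 8 rose and 4 fell in heat ramp cells, against 4 and 7 with total count scaling, and 8 rose and 1 fell in heat shock cells with either scaling. GAS3 (3.15, adjusted p = 6.1e-10) and EXG2 (2.72, adjusted p = 4.3e-10) rose most in heat ramp cells, and SCW11, a glucanase of daughter cell separation, was at −2.83 (adjusted p = 7.3e-09) in heat ramp cells but 1.07 (adjusted p = 0.00029) in heat shock cells, with a direct difference of −3.90 (adjusted p = 4.0e-10). Beta-1,6-glucan assembly had 2 higher and 3 lower of 8 in heat ramp cells (2 and 6 with total count scaling), with KRE1 at 1.77 and KNH1 at −3.62, and 3 higher and 2 lower in heat shock cells, where the number lower was 1 with the culture as a block and without heat ramp replicate 1, heat shock replicate 1 or 3 or any of the control replicates. Chitin synthesis had 4 higher and 3 lower of 11 in heat ramp cells (2 and 8 with total count scaling), with CHS7 at 1.62 and SKT5 at −1.57. In heat shock cells it had 3 higher and 3 lower (0 higher and 5 lower with total count scaling), with 1 higher without heat shock replicate 3 and 0 without control replicate 2. In the HOG and pheromone MAP kinase pathways 3 of 16 genes rose and 10 fell in heat ramp cells (0 rose and 15 fell with total count scaling), with a median of −0.78. In heat shock cells 2 rose and 6 fell (0 and 6 with total count scaling), with 1 higher without heat shock replicate 2 or control replicate 1 and 0 without heat shock replicate 3 or control replicate 2.

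**Figure D5:**
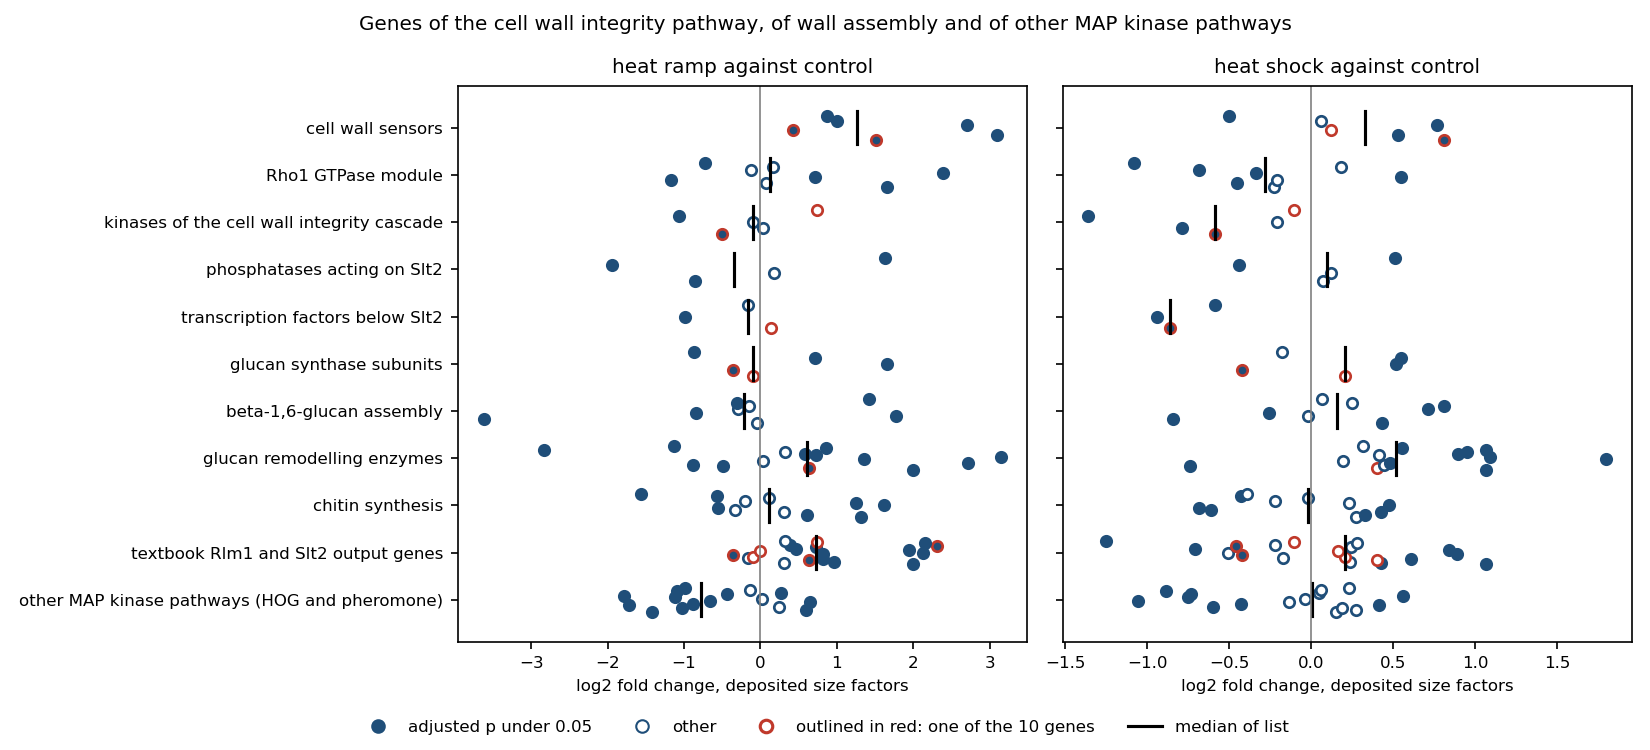
Log2 fold changes (x axis, deposited size factors) of the genes of 11 lists in heat ramp against control and heat shock against control. Each circle is a gene, filled where the adjusted p is under 0.05 and outlined in red for the 10 genes described, and black bars are list medians. All 6 sensors lie above 0 in heat ramp cells with a median of 1.26, while the kinases have a median of −0.10.

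To show which genes had the most similar course, the 9 log2 values of each gene were centred and compared by the root mean square difference over all 9 libraries. Nearest to PST1 were TPH3 (0.14), YSC84 (0.16) and YGR127W (0.17), and nearest to MID2 were YGL132W (0.13), AGP2 (0.17) and YPF1 (0.17). WSC1 was nearest to YDL012C (0.07), BCK1 to HFI1 (0.06), RLM1 to NDC80 (0.16), FKS1 to MRN1 (0.08) and FKS2 to UBP5 (0.07). PRM5, another textbook target of Rlm1, was the third nearest to CRH1 (0.18), and no other nearest neighbour of the 10 genes was in the lists above. SLT2 was farthest from its nearest neighbour, HSL1 (0.24), and KDX1 was nearest to IQG1 (0.17). These distances are descriptions over 9 libraries that share cultures and groups.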

How the data were processed

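RNA was measured by RNAseq of poly(A)+ RNA in 9 libraries, 3 for each of heat ramp, heat shock and control. Per the labels, the authors trimmed 50-base single-end reads with Trimmomatic 0.32, aligned them to SacCer3 with Bowtie2 in sensitive local mode and normalized with DESeq2. The counting tool and the use of strand are not given in the sources used here. The deposited values are normalized counts, a signal per feature (the reads of a library over its DESeq2 size factor). In every library 100% of the values came out as whole reads (tolerance 0.01), so that reads were recovered. The authors' series tables, with their own fold changes and p-values, were not used.

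Tests covered features whose normalized counts averaged 10 or more (6847 of 7126) on log2(normalized count + 1) with limma 3.58.1 (lmFit and eBayes with trend) in R 4.3.3, in 1 fit of all 9 libraries with the group as the only factor. Tests are two-sided, with Benjamini-Hochberg adjustment over all tested features of a comparison and a threshold of 0.05. Fold changes are on the log2(value + 1) scale. Comparisons with the control share its libraries. Count tests on recovered reads were alternatives: for heat ramp against control edgeR 4.0.16 (quasi-likelihood) called 2560 features higher and 2823 lower, and DESeq2 1.42.0 2686 and 2699. The 19 alternatives were 3 scalings or feature sets (total counts, TMM, protein-coding genes only), pseudocounts of 0.1 and 5, no filter, only the groups compared, the culture as a block, edgeR, DESeq2, and each of 9 libraries left out. Scripts were tested on simulated data. Errors are SDs over 3 cultures or limma SEs, and the limit of 3 reads for a count of 0 covers counting error only.

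Culture numbers pair the samples by design, since each culture gave a sample to every group. Deviations from group means correlated between same-numbered samples at −0.20 to 0.29 over 6847 features. For the 10 genes, calls that the block changed are given in the closing section.

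Named genes are the 10 genes, at most 3 called genes with the largest changes in each list and comparison, and up to 3 nearest neighbours by course. Members and lists were chosen with earlier results of these data known. Positions and sequences are from the R64 reference genome (RefSeq).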

Additional observations from a re-analysis of the deposited data

Results flagged for a closer look

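PST1 is singled out by a difference between the treatments: its response differed between heat ramp and heat shock by 2.77 on the log2 scale (limma adjusted p = 7.5e-09), with 113279, 95765 and 113535 normalized counts in heat ramp cells, 20164, 13211 and 14574 in heat shock cells, and 22122, 22850 and 19919.8 in control cells. Its changes against the control had opposite signs, 2.31 for heat ramp and −0.46 for heat shock, both past the test. The heat shock value is the weaker of them, since its libraries overlapped the control and the call held in 13 of 19 alternatives. With total count scaling the difference between the treatments was 2.03.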

How the results depend on the processing

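Of the values of the 10 genes, those of MID2 and BCK1 against the control, PST1 in heat ramp against control and against heat shock, and RLM1 in heat shock against control kept their direction and their side of the threshold under all 19 alternatives. So did FKS1 in heat shock against control, which was called in none of them. Total count scaling mattered most, as it moved the median of all features. With it, heat ramp against control became −0.49 for WSC1, −0.18 for SLT2, −0.78 for RLM1 and −0.28 for CRH1, heat shock against control −0.051 for WSC1 and −0.011 for KDX1, and heat ramp against heat shock −0.44 for WSC1, −0.031 for MID2, −0.67 for BCK1, −0.68 for FKS2 and −0.50 for CRH1. The genes called were then 2 higher and 6 lower for heat ramp against control, with 1325 and 4385 over all features, and 1 higher and 6 lower for heat ramp against heat shock, with 1184 and 4096. With protein-coding genes only, heat ramp against control was 0.18 for KDX1 and 0.087 for FKS1, with 1 gene lower, and heat shock against control 0.0061 for SLT2, with 2 genes higher and 2 lower. A fit of only the groups compared gave 2 genes higher for heat shock against control. KDX1 in heat ramp against control was 0.041 with edgeR and 0.11 with DESeq2, where the main value was −0.0030. The cause of these changes beyond the scaling itself was not tested.

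With the culture as a replicate block, heat ramp against heat shock kept 0.84 for SLT2 but lost its call (adjusted p = 0.0527) and kept 0.30 for WSC1 and gained one (adjusted p = 0.0485). The block changed no other call of the 10 genes, and it moved no count of higher or lower genes in the lists by more than 1.

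When each library was left out in turn, heat ramp against control ranged from −0.027 to 0.32 for RLM1 and from −0.38 to 0.31 for KDX1, heat shock against control from −0.49 to 0.18 for SLT2, and heat ramp against heat shock from −0.54 to 0.15 for KDX1, from −0.030 to 0.18 for FKS2 and from −0.022 to 0.43 for CRH1. The number of genes higher in heat ramp against control ranged from 3 to 5 and that of genes lower from 1 to 2. For heat shock against control the number higher ranged from 1 to 2 and the number lower from 2 to 4. For heat ramp against heat shock the number higher ranged from 3 to 5 and the number lower from 0 to 1. The lowest count of the 10 genes in a library was 257 reads.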
